A study of Mus musculus with 85 samples.

Results

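MiR-21a is a single mouse miRNA gene whose precursor gives the mature arms miR-21a-5p and miR-21a-3p (listed as mmu-miR-21a-5p and mmu-miR-21a-3p). Both rows were taken from a table of 1977 mature miRNAs counted in 85 heart libraries, of which 548 miRNAs had at least 1 count. The hearts came from 16-week-old females of HMDP strains (hybrid mouse diversity panel, a set of inbred strains) that had been fed chow for 8 weeks, followed by 8 weeks on food rich in fat and sucrose (HF/HS). All animals shared this treatment, with 1 library per heart, so the libraries form 1 group without an untreated control or a second stress. The labels do not say which strain each library came from, and neither fibrosis nor heart function was measured on these libraries, so the levels below are given between hearts and not between healthy and stressed hearts.

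MiRNAs are short RNAs that guide Argonaute proteins to mRNAs, mainly by pairing of the seed, bases 2 to 8 of the mature strand. One arm of a precursor is usually kept as the guide and the other is degraded. MiR-21 is known as an abundant miRNA of many cell types, including fibroblasts and leukocytes, and in the heart it is known for its rise in fibroblasts under stress and for repressing Spry1, an inhibitor of growth factor signalling.

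The mature arms are shown with the seed in capitals because the seed is what pairs with target mRNAs, and because the paralogs miR-21b and miR-21c differ from miR-21a-5p by few bases. All sequences are those of RefSeq on GRCm38.p6, in which both arms of miR-21a were found.
miR-21a-5p: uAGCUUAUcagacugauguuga
miR-21a-3p: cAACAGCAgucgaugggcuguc
miR-21b: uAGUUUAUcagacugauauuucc
miR-21c: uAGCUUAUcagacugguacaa

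Counted from 1 at the 5′ end, miR-21b differs from miR-21a-5p by C4U, G18A, G21U and A22C, of which C4U lies in the seed. MiR-21c differs by A16G, G18A, U19C, U20A and G21A, all outside the seed. Among the 1679 mature mouse entries of the reference used, miR-21c was the only other one with the seed of miR-21a-5p. That reference is incomplete, with a sequence for 41 of the 51 expressed miRNAs, so further mouse miRNAs with this seed may be missing from it. Neither miR-21b nor miR-21c had a count in any library, so the counts of miR-21a-5p were not shared with either of these rows. None of the 41 expressed miRNAs with a sequence, other than miR-21a-5p itself, carried this seed.

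The gene Mir21a (ENSMUSG00000065455.1) lies on the minus strand of chromosome 11, at chr11:86584067-86584158 on GRCm38, and its hairpin has 92 bases. The 5p arm maps to chr11:86584120-86584141 and the 3p arm to chr11:86584082-86584103. The hairpin is within the last exon of Vmp1 (vacuole membrane protein 1; chr11:86583865-86683836, minus strand), in the 3′ UTR and 1152 bases past the end of the coding sequence.

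The libraries held 1457 to 30202 counts (median 12248), which is shallow for a miRNA table. A share of 3 counts, taken as the detection floor, was 0.0245% of the median library and 0.206% of the shallowest, library 14. A filter on low counts kept 51 miRNAs that held 95.7% of all counts; miR-21a-5p passed it and miR-21a-3p did not. Over 3570 pairs of libraries, chi-square per degree of freedom between their counts had a median of 9.37 and was 1.36 at the lowest. Whether the closest pair differed beyond counting noise was not tested, and no library was treated as a repeat. The first principal component of log2 CPM, computed without miR-21a-5p, held 74.6% of the variance, and a 2-means split of it set 27 libraries apart from 58. The 27 were exactly libraries 1 to 10, 15 to 18, 20 to 21 and 49 to 59, so library number and overall miRNA profile changed together in blocks, called runs below. What the runs stand for (strain order, preparation or sequencing) is not in the labels, and strain and run cannot be told apart. As a check of the tissue, the heart muscle miRNAs miR-1a-3p, miR-133a-3p, miR-208a-3p and miR-499-5p were counted in all 85 libraries. The other row of that list, miR-208b-3p, had 74 counts in 35 libraries. The liver miRNAs miR-122-5p and miR-192-5p had 399 counts in 75 libraries and 254 counts in 79. In all, the muscle list held 263018 counts and the liver list 653. Presence in every library was not particular to muscle, since leukocyte miR-142a-3p and erythroid miR-451a were also counted in all 85.

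MiR-21a-5p was a mid-abundance miRNA of these hearts. It had 5348 of 1142199 counts, a share of 0.468% (95% Wilson interval 0.456 to 0.481%, counting error only), and ranked 35 among all miRNAs by pooled counts. The most counted rows were miR-1b-5p with 251291 counts and the muscle miRNA miR-1a-3p with 202280 (17.7%), followed by endothelial miR-126a-3p (5.76%), muscle miR-133a-3p (4.12%) and let-7f-5p (4.10%). How reads were assigned among the related miR-1a and miR-1b rows is not given in the sources used here, so the count of miR-1b-5p is uncertain. MiR-24-3p with 5701 counts and miR-378a-3p with 5469 stood directly above miR-21a-5p. MiR-30b-5p with 3859 and miR-125a-5p with 3849 stood directly below.

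Every library held miR-21a-5p. Its count was 6 in the lowest library, 54 in the median library and 148 in the highest. As a share of the library it ran from 0.0910% over a median of 0.459% to 0.779%, an 8.56-fold range. On the log2 CPM scale with TMM normalization (trimmed mean of M-values, which allows for a change in the makeup of a library) the lowest heart had 9.96, the median heart 12.30 and the highest heart 13.03, with an SD of 0.71 (n = 85). Library 9 was lowest and library 76 highest. The rank of miR-21a-5p within a library was 24 at best, 32 in the median library and 68 at worst.

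The level of miR-21a-5p moved in steps with the runs. In libraries 1 to 10 it had a lowest, median and highest log2 CPM of 9.96, 11.12 and 12.06 (mean 10.996 ± 0.590, SD, n = 10). In libraries 22 to 48 these were 12.01, 12.34 and 12.94 (mean 12.39 ± 0.25, SD, n = 27). In libraries 49 to 59 they were 11.15, 11.67 and 11.97 (mean 11.63 ± 0.22, SD, n = 11). In libraries 60 to 85 they were 12.03, 12.67 and 13.03 (mean 12.64 ± 0.25, SD, n = 26). Libraries 1 to 10 were thus the lowest and most spread of these runs, and libraries 60 to 85 the highest.

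Between neighbours in this order, the mean of libraries 49 to 59 was 0.64 above that of libraries 1 to 10, with 5 of the 10 lower libraries above the lowest of the higher run. The mean of libraries 22 to 48 was 0.75 above that of libraries 49 to 59, and these runs did not overlap. This was not particular to miR-21a-5p. MiR-133a-3p, miR-142a-3p, miR-208a-3p and miR-29b-3p did not overlap between these runs either, whereas miR-199a-3p and miR-126a-3p did. The share of all 51 miRNAs without overlap was not counted, so nothing about miR-21a-5p is read from it. Libraries 60 to 85 were a further 0.25 higher, which is about the SD within either run, and 25 of the 27 lower libraries were above the lowest of the higher run. The pooled shares followed the same order, at 0.214%, 0.361%, 0.501% and 0.565%.

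The short runs fell on either side. Libraries 11 to 14 had log2 CPM values of 11.56, 12.32, 12.10 and 11.93, and library 19 had 12.83. Libraries 15 to 18 had 11.32, 11.002, 10.995 and 10.30, and libraries 20 and 21 had 11.11 and 10.45. The short runs that belonged to the 27 libraries were therefore all below libraries 11 to 14 and 19.

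Over all libraries, the 27 set apart by their profile had a mean log2 CPM of 11.23 ± 0.54 (SD) for miR-21a-5p against 12.48 ± 0.31 (SD) in the other 58. This difference of 1.25 (2.38-fold) ranked 8 among the 51 miRNAs from most higher to most lower, beside a median of -0.15. It is a description without a test, because the split came from the miRNA profile. The difference was 0.98 with plain CPM and 1.31 with DESeq2 size factors, so its direction did not turn on the scaling. The groups overlapped, with 6 of the 58 libraries below the highest of the 27. Runs held 81.2% of the sum of squares of miR-21a-5p, which ranked 11 of 51 beside a median of 62.5%.

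**Figure D1:**
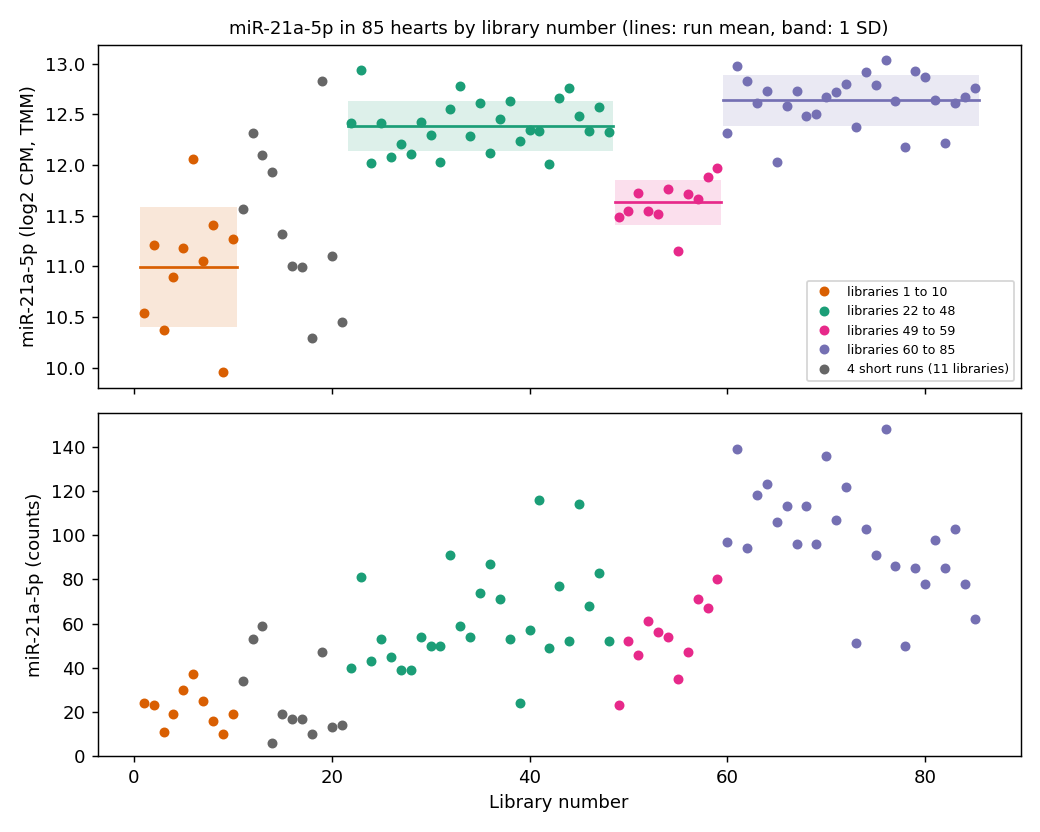
Level of miR-21a-5p against library number, as log2 CPM with TMM (top) and as counts (bottom), 1 point per heart; lines give the mean and bands 1 SD of each long run. Libraries 1 to 10 sit around 10.996 and libraries 49 to 59 around 11.63, with libraries 22 to 48 and 60 to 85 around 12.39 and 12.64.

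The 3p arm was close to absent at this depth. MiR-21a-3p had 6 counts in all, from libraries 33, 60, 61, 64 and 82, with 2 counts in library 61 and 1 in each of the others. It had 0 counts in 80 libraries. Its share of the precursor's counts was 0.112% (95% Wilson interval 0.0514 to 0.244%), or 891 counts of the 5p arm for each count of the 3p arm. At the median count of miR-21a-5p, the floor of 3 counts was 5.56% of the 5p count. A count of 0 still allowed a 3p arm of that size in a single library. Arm shares of single hearts were therefore not detectable at this depth.

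By run, the 3p arm had 0 counts beside 214 of the 5p arm in libraries 1 to 10 and 0 beside 592 in libraries 49 to 59. It had 1 beside 1675 in libraries 22 to 48 (0.0597%) and 5 beside 2578 in libraries 60 to 85 (0.194%, interval 0.0827 to 0.452%). The upper bound of the share in libraries 1 to 10 was 1.76%, so these runs could not be told apart by arm share. Over all libraries the chi-square per degree of freedom of the share was 0.725. With 6 counts of the 3p arm and 80 libraries at 0 it could neither show nor exclude variation between hearts. Among the 45 precursors with both arms listed and at least 1000 counts, the minor arm share of miR-21a ranked 12 from the lowest, beside a median of 0.547%. Within runs the level of the 3p arm had no detectable relation to that of the 5p arm (Pearson's r = 0.0929, permutation p = 0.337; Spearman's rho = 0.0555, permutation p = 0.649), with 5 libraries above 0. The r of the arm share with the 5p level, -0.372, follows from the 0.5 added to counts of 0, since the share then falls as the 5p count rises, and nothing is read from it.

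MiR-21a-5p varied between hearts beyond counting noise, as did nearly every expressed miRNA. Its counts against the library totals gave a chi-square per degree of freedom of 6.80 over 85 libraries, where counting of independent molecules alone gives a value near 1. All 51 of 51 miRNAs (100%) were past the chi-square threshold on this measure, with a median of 12.2. Within runs and with TMM library sizes it was 2.54 for miR-21a-5p beside a median of 4.54, and 48 of 51 miRNAs (94.1%) were past the threshold. PCR copies among the counts would raise all of these values, and their part was not tested. By run the value of miR-21a-5p was 4.23 in libraries 1 to 10 (p = 1.69e-05), 1.88 in libraries 22 to 48 (p = 0.00435) and 3.12 in libraries 60 to 85 (p = 2.43e-07). In libraries 49 to 59 it was 1.31 (p = 0.220), which was not past the threshold of 0.05. At the median count of 54 over all libraries, counting alone gives a coefficient of variation (CV) of 13.6%. It gives 21.8% at the median count of 21 in libraries 1 to 10 and 10.1% at that of 97.5 in libraries 60 to 85.

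The variation beyond counting, given as the biological CV of edgeR, was 43.2% for miR-21a-5p without a run term and 15.7% with run as a factor. Without the run term it ranked 36 of 51 from the least variable (median 33.2%), and with it 17 of 51 (median 18.5%, range 9.32 to 49.9%). Within runs miR-21a-5p was therefore less variable than the median expressed miRNA. The leukocyte miRNA miR-142a-3p stood at the other end, with 91.7% (rank 51) without the run term and 38.5% (rank 50) with it. The fibroblast rows miR-199a-3p and miR-199b-3p had 12.8% and 12.5%.

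**Figure D2:**
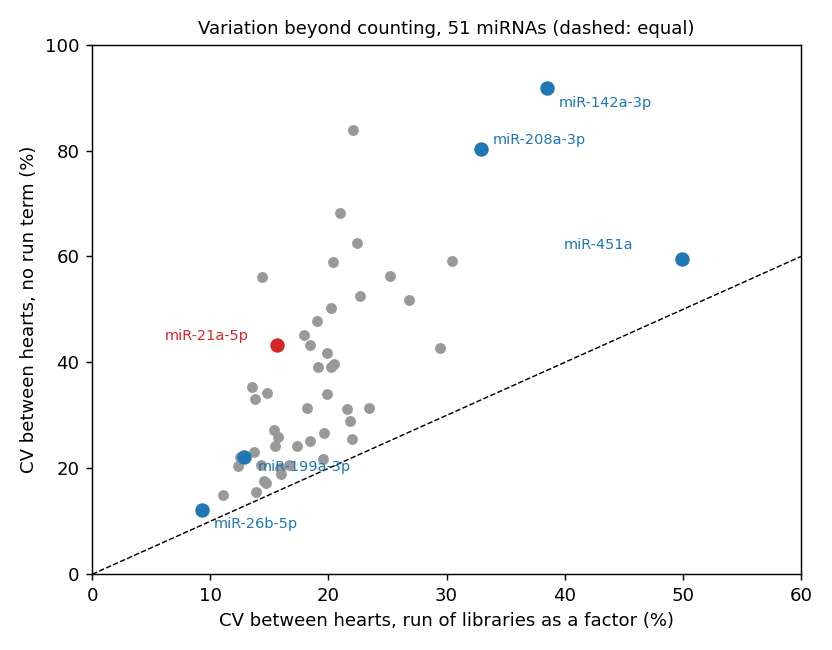
CV between hearts beyond counting noise for 51 miRNAs, with run as a factor (x axis, %) and without it (y axis, %), 1 point per miRNA. MiR-21a-5p falls from 43.2% to 15.7% once run is in the model, and miR-142a-3p falls from 91.7% to 38.5%.

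Whether miR-21a-5p changed along the library order was tested with edgeR's quasi-likelihood test over the 51 miRNAs. Over all 85 libraries miR-21a-5p rose by 0.160 ± 0.0252 (SE) log2 units per 10 libraries (adjusted p = 5.04e-08), the sixth steepest rise. Such trends were the rule in these libraries, since 44 of 51 miRNAs (86.3%) were called, with 21 (41.2%) rising and 23 falling. With run as a factor the slope of miR-21a-5p was 0.0439 ± 0.0523 (SE) and not past the threshold (adjusted p = 0.754, 95% interval -0.0585 to 0.146). In that fit 0 of 51 miRNAs (0%) were called by edgeR, with 6 under an unadjusted p of 0.05. Within the single long runs the slope was 0.393 in libraries 1 to 10, 0.0361 in 22 to 48, 0.372 in 49 to 59 and 0.0244 in 60 to 85, with adjusted p values of 0.307 to 0.854.

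**Figure D3:**
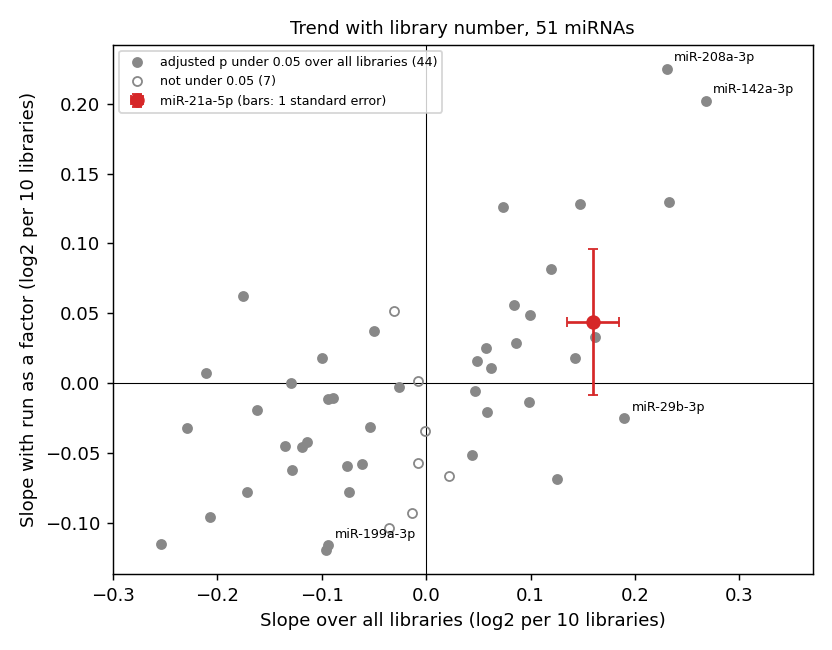
Slope of log2 level on library number for 51 miRNAs, over all libraries (x axis) and with run as a factor (y axis), both in log2 units per 10 libraries, with 1 SE for miR-21a-5p. MiR-21a-5p has a slope of 0.160 on the x axis and 0.0439 on the y axis, where its error bar spans 0.

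To ask which miRNAs rose and fell with miR-21a-5p apart from the runs, values were set relative to the mean of their run over the 74 libraries of the 4 long runs, and each of the other 50 miRNAs was tested by permutation within runs. In a heart, a lower level of a cell type's miRNA can come from fewer such cells or from less of it per cell, and these cannot be told apart in bulk RNA. Of the 50 miRNAs 9 (18%) were called, 5 with a positive and 4 with a negative r. At an unadjusted p under 0.05 there were 16. By Spearman's rho with the same permutation test 0 were called, with 9 at an unadjusted p under 0.05. The median r was -0.033. Most calls rested on a single heart, library 9, where miR-21a-5p was lowest with 10 counts. Without it 1 of 50 was past the threshold, miR-142a-3p. Within single runs 0 of 50 were called by the permutation test, with 15, 2, 2 and 6 at an unadjusted p under 0.05 in libraries 1 to 10, 22 to 48, 49 to 59 and 60 to 85.

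The leukocyte list showed 1 called relation. MiR-142a-3p, a miRNA of the blood cell lineages, had the highest r of all 50 with miR-21a-5p (r = 0.481, permutation adjusted p = 0.003; rho = 0.387, permutation adjusted p = 0.052). The r was positive in each long run, at 0.670 in libraries 1 to 10, 0.335 in 22 to 48, 0.475 in 49 to 59 and 0.448 in 60 to 85, though in none of them was it called alone. Without library 9 it was 0.477 (permutation adjusted p = 0.009), with libraries 9 and 3 left out as the 2 farthest from the median it was 0.419 (permutation adjusted p = 0.031), and without libraries 1 to 10 it was 0.407 (permutation adjusted p = 0.047). MiR-142a-3p is shown with its seed in capitals as the only miRNA whose relation held through these exclusions.
miR-142a-3p: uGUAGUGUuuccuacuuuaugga

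This seed differs from that of miR-21a-5p. The mature miR-142a-3p lies on the same chromosome, at chr11:87756903-87756925 on the plus strand, 1172744 bases from the Mir21a hairpin. Its level also followed the runs, with mean log2 CPM values of 10.54, 14.04, 11.23 and 14.13 in libraries 1 to 10, 22 to 48, 49 to 59 and 60 to 85. Its pooled share was 0.170% in libraries 1 to 10 and 1.73% in libraries 60 to 85, against 0.214% and 0.565% for miR-21a-5p. There were 1.26 counts of miR-21a-5p for each count of miR-142a-3p in libraries 1 to 10 and 1.19 in libraries 49 to 59, against 0.296 in libraries 22 to 48 and 0.326 in libraries 60 to 85.

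No other leukocyte miRNA was called. MiR-146a-5p, a miRNA induced by inflammatory signalling, had an r of 0.050 (permutation adjusted p = 0.749; rho = 0.022). The remaining 8 of 10 rows of the list did not pass the filter: miR-223-3p of myeloid cells had 1111 counts, miR-142a-5p 934, lymphocyte miR-150-5p 699, miR-342-3p 488 and miR-155-5p 430. MiR-150-3p was at 0 in every library. The r of these rows in the unfiltered table lay between -0.185 for miR-342-3p and 0.185 for miR-142a-5p, the other arm of miR-142a, and none was called. MiR-142a-3p held 14800 of the 19860 counts of the whole list. It held 5665 of 6955 in libraries 22 to 48 and 7909 of 9485 in 60 to 85. In libraries 1 to 10 it held 170 of 852, and in 49 to 59 it held 499 of 1506. The sum of the list is therefore not independent of the row called above. The summed share of the whole list ran from 0.717 to 0.980% in libraries 1 to 10, 1.08 to 3.30% in 22 to 48, 0.734 to 1.31% in 49 to 59 and 0.811 to 4.31% in 60 to 85. Its r with the share of miR-21a-5p was 0.264 within runs, and 0.102, 0.296, 0.025 and 0.436 in the runs in the same order.

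No fibroblast miRNA was called with miR-21a-5p. MiR-199a-3p and miR-199b-3p, miRNAs of mesenchymal cells, had an r of -0.193 and -0.192 (permutation adjusted p = 0.176 for both). Their mature sequences are identical, so reads cannot be assigned to one or the other and the 2 rows count as 1 measurement.
miR-199a-3p and miR-199b-3p: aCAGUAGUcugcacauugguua

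The r of miR-199a-3p was -0.520, -0.264, -0.329 and 0.223 in libraries 1 to 10, 22 to 48, 49 to 59 and 60 to 85. With plain CPM in place of TMM it was 0.010 over the runs, so no direction is given for it. The other 4 rows of the list did not pass the filter, with 996 counts for miR-199a-5p, 491 for miR-199b-5p, 21 for miR-214-5p and 6 for miR-214-3p. With the identical rows counted once (miR-199b-3p left out), the summed share of the list ran from 1.11 to 1.81% in libraries 1 to 10, 0.451 to 1.503% in 22 to 48, 1.03 to 1.59% in 49 to 59 and 0.562 to 0.924% in 60 to 85, with the highest median in libraries 1 to 10. The r of this sum with the share of miR-21a-5p was -0.485, 0.091, -0.340 and 0.589 in libraries 1 to 10, 22 to 48, 49 to 59 and 60 to 85, so the runs differed in sign, and it was 0.038 over them.

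Set directly against each other, with no library size involved, there were 0.170 counts of miR-21a-5p for each count of miR-199a-3p in libraries 1 to 10, 0.326 in 49 to 59, 0.613 in 22 to 48 and 0.902 in 60 to 85. The ratio of single libraries ran from 0.0725 to 0.451 in libraries 1 to 10 and from 0.625 to 1.23 in libraries 60 to 85, so these runs did not overlap. The same order was seen against miR-26b-5p, at 0.222, 0.374, 0.728 and 0.821, and against miR-29a-3p, at 0.0832, 0.138, 0.262 and 0.286. Against miR-26b-5p single libraries ran from 0.113 to 0.474 and from 0.486 to 1.13 in these runs, also without overlap. Against miR-29a-3p and miR-126a-3p they overlapped, and against miR-142a-3p they did not. The share of all 50 miRNAs without such overlap was not counted, so nothing is read from the lack of overlap. Against miR-142a-3p the ratio was instead higher in libraries 1 to 10 and 49 to 59, as given above. The order was thus not particular to miR-199a-3p. The part of cell composition in these values was not tested.

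**Figure D4:**
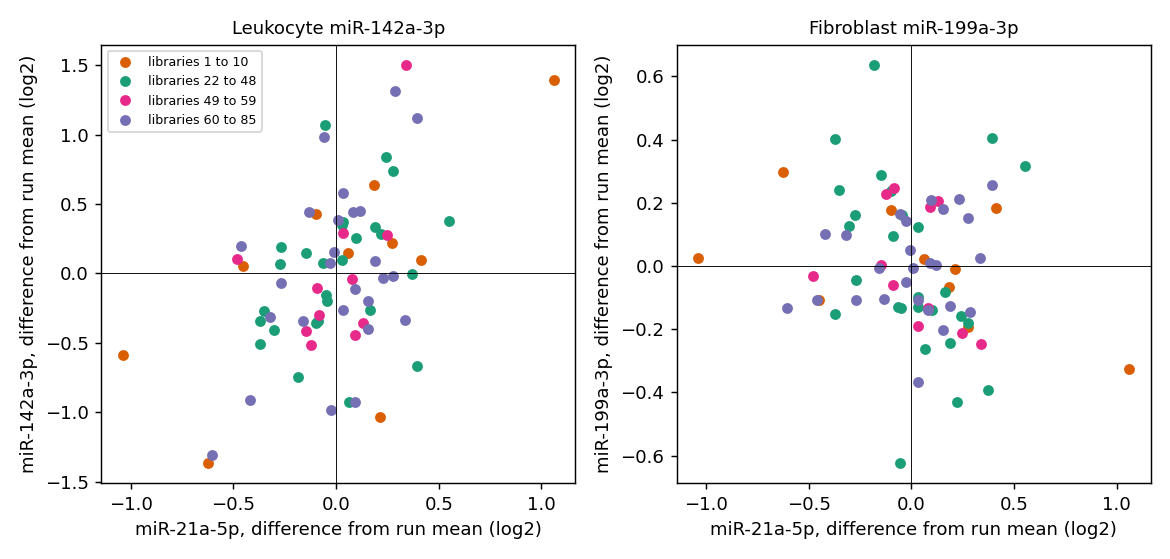
MiR-21a-5p (x axes) against leukocyte miR-142a-3p (left) and fibroblast miR-199a-3p (right), each as the log2 difference from the mean of its run, 1 point per heart in 74 libraries. The points rise together on the left (r = 0.481) and show no call on the right (r = -0.193).

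Among miRNAs known to restrain collagen genes, 2 of 6 were called, beside the 9 of 50 (18%) called over all miRNAs. MiR-29b-3p, which represses collagens, had an r of 0.288 with miR-21a-5p (permutation adjusted p = 0.049; rho = 0.261) and miR-133a-3p, a muscle miRNA, an r of -0.411 (permutation adjusted p = 0.049; rho = -0.266). Neither was called without library 9, where the r was 0.253 for miR-29b-3p and -0.291 for miR-133a-3p. MiR-133a-3p was called without libraries 1 to 10 (-0.376, permutation adjusted p = 0.047), but not with DESeq2 size factors (-0.368, permutation adjusted p = 0.062), plain CPM (-0.230, 0.322) or totals without the 5 largest miRNAs (-0.316, 0.087), so its call depended on the scaling. MiR-30c-5p, with 0.210, was called with plain CPM alone (0.308, permutation adjusted p = 0.0495). MiR-29c-3p had 0.255 and was not called, and the median r of the list was 0.162 beside -0.033 over all 50. The called members thus had r values of opposite sign.

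Of the stress and hypertrophy list, 5 of 10 rows passed the filter and 1 of these 5 was called, again beside 18% over all miRNAs. MiR-208a-3p, encoded in the cardiac alpha myosin heavy chain gene, had an r of 0.369 (permutation adjusted p = 0.015; rho = 0.353), with 0.782, 0.216, 0.249 and 0.394 in libraries 1 to 10, 22 to 48, 49 to 59 and 60 to 85. Without library 9 its r was 0.312 and no longer called (permutation adjusted p = 0.082). MiR-24-3p, miR-27b-3p and miR-23a-3p had -0.289, -0.188 and -0.182, and miR-499-5p had 0.131, all without a call. The median r of the list was -0.182 beside -0.033 over all 50. The stress-induced relative of miR-208a-3p, miR-208b-3p, had 74 counts in all and was too low to test.

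Of the other cell types, 2 of 4 tested cardiomyocyte rows were called (18% over all miRNAs), miR-208a-3p and miR-133a-3p, in opposite directions and neither without library 9, and miR-1a-3p had an r of 0.273 without a call. Endothelial miR-126a-5p and miR-126a-3p had 0.311 and 0.119, smooth muscle miR-143-3p and miR-145a-5p 0.238 and -0.053, and erythroid miR-451a 0.118, all without a call at the TMM scale. With plain CPM miR-126a-5p (0.362) and miR-143-3p (0.313) were called, both at a permutation adjusted p of 0.0495. The other erythroid rows did not pass the filter and were not called in the unfiltered table: miR-486a-5p had 1322 counts and an r of -0.432 (permutation adjusted p = 0.139), and miR-144-3p had 430 counts and an r of 0.263. No liver row passed the filter.

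The 3 miRNAs with the highest r were miR-142a-3p, miR-126b-3p (0.435, permutation adjusted p = 0.027) and miR-30b-5p (0.401, permutation adjusted p = 0.049). The 3 with the lowest were miR-125b-5p (-0.470, permutation adjusted p = 0.015), miR-125a-5p (-0.456, permutation adjusted p = 0.022) and miR-103-3p (-0.435, permutation adjusted p = 0.027). Their rho values were 0.255 for miR-126b-3p, 0.197 for miR-30b-5p, -0.292 for miR-125b-5p, -0.322 for miR-125a-5p and -0.189 for miR-103-3p. The call of miR-103-3p depended on the scaling: it was lost with DESeq2 size factors (-0.380, permutation adjusted p = 0.054), plain CPM (-0.309, 0.145) and totals without the 5 largest miRNAs (-0.368, 0.069). MiR-126b lies opposite miR-126a on chromosome 2, and without a stated strand setting reads of the 2 genes cannot be told apart.

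MiR-125a-5p and miR-125b-5p are shown because they share the seed in capitals and both had a called negative r with miR-21a-5p.
miR-125a-5p: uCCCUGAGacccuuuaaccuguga
miR-125b-5p: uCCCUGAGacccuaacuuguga

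The r of miR-125a-5p was negative in each long run, at -0.559, -0.429, -0.246 and -0.420, and without libraries 1 to 10 it was -0.380 (permutation adjusted p = 0.047). Without library 9, however, neither miRNA of this pair was called. Their level against the runs was opposite to that of miR-21a-5p, with a share of miR-125b-5p of 3.02% in libraries 1 to 10, 2.65% in 49 to 59, 1.02% in 22 to 48 and 0.712% in 60 to 85. When likeness was measured as the SD of the log2 ratio instead, the nearest to miR-21a-5p were miR-126b-3p (0.320), miR-30e-5p (0.324) and miR-143-3p (0.342), beside a median of 0.462 over the 50 miRNAs, so 1 of 3 was shared between the measures.

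**Figure D5:**
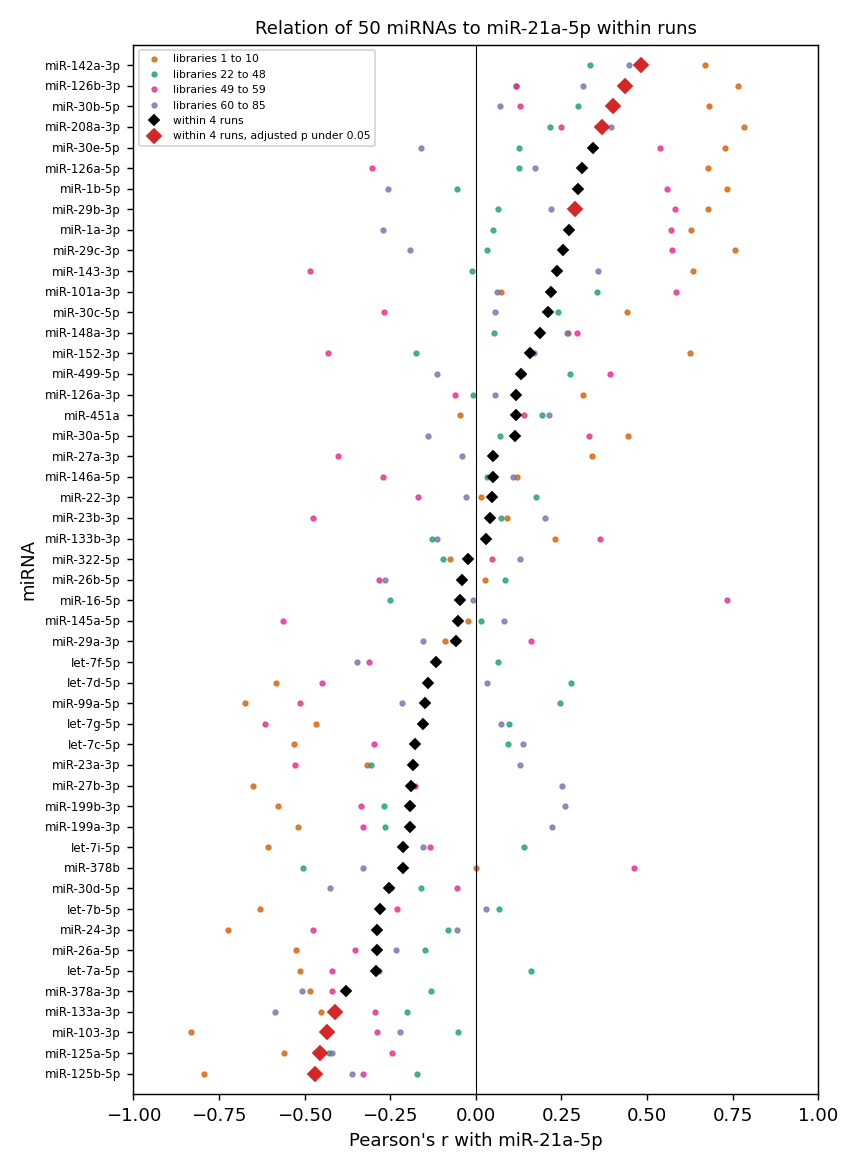
Pearson's r of 50 miRNAs (y axis) with miR-21a-5p within runs (diamonds; adjusted p under 0.05 in colour) and in each long run (dots). MiR-142a-3p is highest at 0.481 and miR-125b-5p lowest at -0.470, and libraries 1 to 10 give the widest values.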

How the data were processed

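Total RNA of the hearts was made into QIAseq miRNA libraries and sequenced (HiSeq, single reads). Per the labels, the authors mapped the reads to mm10 with HISAT2 2.0.6 and counted them with htseq-count 0.13.5; the deposited values are raw counts, 1 whole number for each mature miRNA and library. Trimming, the miRNA annotation, the strand setting, multi-mapped reads and the use of molecular identifiers are not given in the sources used here, so counts may include PCR copies, and near-identical or overlapping miRNAs may share reads. Intervals and floors cover counting error only. Libraries are named by the number in their label. No sample was left out. One library per heart was counted. The p-values of the trend and relation tests measure the spread between these libraries, and those of the chi-square measure departure from counting error alone.

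Totals ran from 1457 to 30202 counts. Counts were filtered with filterByExpr (minimum count 10, minimum total 15, in at least 63 libraries) and normalized by TMM in edgeR 4.0.16 (R 4.3.3), with log2 CPM at a prior count of 2. The trend was tested by glmQLFTest in edgeR (quasi-likelihood), with p-values adjusted over 51 miRNAs by the Benjamini-Hochberg method. Relations were Pearson's r and Spearman's rho of run-centred log2 CPM, with two-sided tests of 100000 permutations within runs of at least 6 libraries, adjusted over 50 miRNAs (numpy 2.4.6, scipy 1.17.1, pandas 2.3.3, scikit-learn 1.9.0, Python 3.11.15, matplotlib 3.10.9). The threshold on the adjusted p was 0.05. Alternatives were DESeq2 1.42.0 size factors and Wald test, CPM without TMM, totals without the 5 largest miRNAs, no filter, a prior count of 0.5, the 84 deeper libraries, biweight midcorrelation, partial correlation given the total, and leaving libraries out; 5 alternatives were added after seeing the data (the fibroblast sum without miR-199b-3p, without the 2 libraries farthest from their run median, run SDs made equal, without library 9, without libraries 1 to 10).

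The miRNAs, runs and cell type lists were chosen with earlier results of these data known. Named are the members, the listed miRNAs that passed the filter, the 3 highest and 3 lowest r, the paralogs, the 5 most counted miRNAs and the neighbours in rank. MiR-26b-5p, miR-30e-5p and listed miRNAs below the filter were named after their values were seen. On simulated counts the trend test called 17 of 17 changed miRNAs and 4 of 39 unchanged ones at a slope of 0.15. With run as a factor it called 9 of 17 and 1 of 39, so a called trend can be an unchanged miRNA. These simulated counts had no steps between runs, unlike the data, so they do not give the rate of false trend calls here. In simulated rows the correlation test called 10 of 10 at r = 0.5 and 2 of 10 at r = 0.3, with 0 of 40 unrelated rows. The simulated rows were independent, with equal SD in every run and no outlying heart. In the data libraries 1 to 10 were the most spread and most calls rested on library 9. The simulation therefore does not give the rate of false calls in these data.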

Additional observations from a re-analysis of the deposited data

How the results depend on the processing

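The trend of miR-21a-5p over all libraries kept its direction and its call under every alternative scaling or filter tried (slope 0.1298 to 0.190), but not when runs entered the model: the slope was 0.0439 with run as a factor, 0.393 within libraries 1 to 10, 0.0361 within 22 to 48, 0.372 within 49 to 59 and 0.0244 within 60 to 85, none called. The number of miRNAs with a trend, 44 of 51, became 99 of 548 without the filter, 0 with run as a factor and 0, 5, 14 and 0 within those runs. With plain CPM 15 of the called miRNAs rose and 29 fell, against 21 and 23. The number related to miR-21a-5p within runs, 9 of 50, became 2 of 547 without the filter, 4 with biweight midcorrelation, 1 without the 2 libraries farthest from the median, 1 without the 2 farthest from their run median, 1 without library 9 and 3 without libraries 1 to 10, the last 3 exclusions being chosen after seeing the data. The r of miR-142a-3p stayed called in these alternatives and under the other scalings (0.407 to 0.515), but not by Spearman's rho (permutation adjusted p = 0.052) or within single runs.

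None of the 9 called relations changed sign under the alternatives tried on the filtered miRNAs. Over all 50, 5 changed sign without the 2 libraries farthest from the median, 9 with plain CPM and 0 to 6 under the others. Among the miRNAs named by the fixed rule, those that changed sign with plain CPM were miR-23a-3p (0.0118), miR-27b-3p (0.0338), miR-145a-5p (0.0440), miR-199a-3p (0.0104), miR-199b-3p (0.0138) and miR-29a-3p (0.0630). MiR-29a-3p was also at 0.0645 with totals without the 5 largest miRNAs and at 0.152 without the filter, where miR-145a-5p was at 0.0173. Without the 2 libraries farthest from the median, miR-126a-3p was at -0.0329 and miR-145a-5p at 0.0159. Without library 9, miR-126a-3p was at -0.0460, miR-145a-5p at 0.00760 and miR-499-5p at -0.000412. Without the 2 farthest from their run median, miR-146a-5p was at -0.00358 and miR-1a-3p at -0.00524. The causes were not tested. The median log2 CPM of miR-21a-5p was 13.38 instead of 12.30 when the totals left out the 5 largest miRNAs, which shrinks every total. The variation of miR-21a-5p within libraries 49 to 59 was not past the threshold with totals (1.32, p = 0.214) or TMM sizes (1.31, p = 0.220). No paired analysis was possible because all libraries belong to 1 group. Depth limited the 3p arm and most listed leukocyte and fibroblast rows, which were too low to test.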
